A study of Danio rerio with 6 samples.

Results

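tp63 (GeneID 260407) and dlx3b (GeneID 30585) are zebrafish transcription factor genes of the non-neural ectoderm, the part of the outer germ layer that forms skin and sense organs. They were chosen by name, with earlier results of these data known, and each was found as 1 record among 13274 genes. p63, the product of tp63, keeps the proliferating basal layer of the epidermis. Dlx3b is a homeodomain protein, needed together with its neighbour Dlx4b for the otic and olfactory placodes, the thickenings that form at the edge of the neural plate. Bone morphogenetic protein (BMP) signals on the ventral side of the gastrula turn on both genes, and antagonists from the dorsal organizer keep BMP activity low where the neural plate forms. Nodal, a signal of the TGF-beta family, induces that organizer together with mesoderm and endoderm.

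Whole zebrafish embryos were kept in SB505124, an inhibitor of the type I receptors through which Nodal, activin and TGF-beta act, from sphere stage (called sphere-treated) or from 30% epiboly (called epiboly-treated). Each onset was harvested at shield stage (early gastrula), at tailbud stage (end of gastrulation) and at 7-somite stage, which gives 6 groups, each listed as 1 sample of 30 to 60 pooled embryos. All 6 groups received the inhibitor and no untreated embryos were analysed here, so an onset difference sets the earlier block against the later one. Neither the strain nor the inhibitor dose is given in the sources used here.

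The values are upper-quartile normalized (UQN) group means with standard errors, as the authors deposited them, and a level written as a ± b below is such a mean with its standard error. Where a ± b follows a log2 ratio or difference, b is the standard error of the fit. Group means summed over all records ran from 15311014 to 21048013, and the median standard error of genes at 100 or more ran from 2.46% to 5.18% of the mean. Read depth is unknown. Each mean was treated as an average of 3 values, the number that the spacing of the standard errors fits, although the labels list 1 sample per group. What these 3 values are is not stated, and since their spread may be technical, the p-values speak of that spread alone. A log2 ratio is the log2 of the quotient of 2 means after adding 5 to each, which understates changes of low genes. Adjusted p-values come from a test on those errors with variances moderated by limma, with Benjamini-Hochberg adjustment over all 13274 genes, and "called" means an adjusted p under 0.05. In RNA of whole embryos, fewer cells of a type and less RNA per cell cannot be told apart.

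tp63 was low at shield, highest at tailbud and somewhat lower at 7-somite, and at each stage it was higher after the earlier onset. At shield its mean was 121 ± 19.7 with the later onset (epiboly-treated) and 706 ± 151 with the earlier one (sphere-treated). At tailbud the means were 2986 ± 241 and 5007 ± 101. At 7-somite they were 2211 ± 128 and 3378 ± 171. The sphere-treated mean lay above the epiboly-treated mean by more than both standard errors at all 3 stages.

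dlx3b followed the same course over stages, with a wider gap at shield and a narrower one at 7-somite. At shield its mean was 93 ± 24 in the epiboly-treated group and 1214 ± 405 in the sphere-treated group. At tailbud it stood at 3399 ± 141 and 5706 ± 296. At 7-somite it stood at 2345 ± 84.3 and 3017 ± 30.1. From its lowest to its highest group dlx3b spanned 61.4-fold, and tp63 spanned 41.4-fold.

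**Figure D1:**
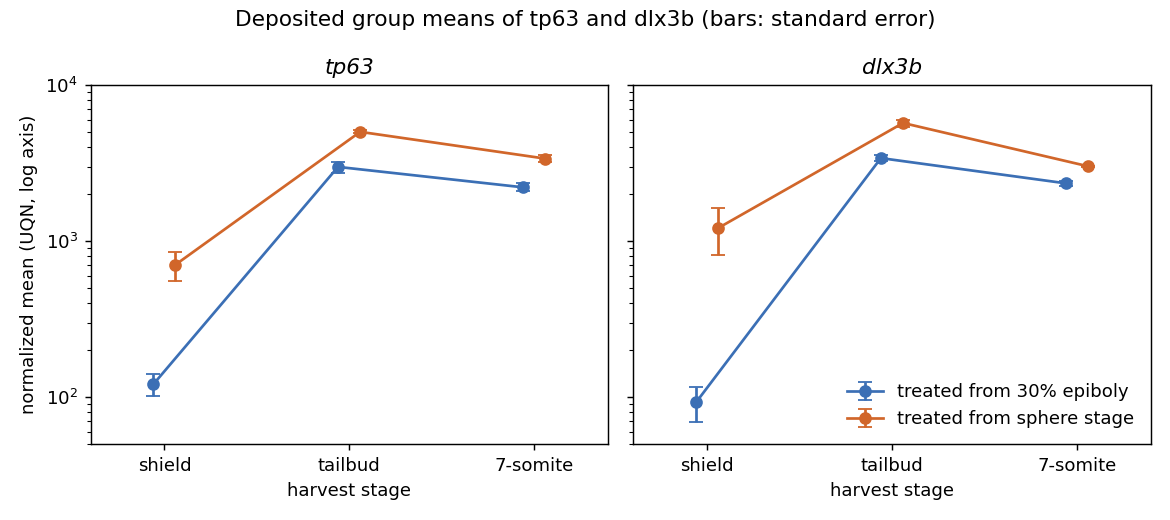
Normalized group means (UQN, log axis) of tp63 (left) and dlx3b (right) at shield, tailbud and 7-somite stage, in embryos treated from 30% epiboly (blue) or from sphere stage (orange); bars are the deposited standard errors. Both genes peak at tailbud in both onsets, and the gap between the onsets is widest at shield on this log axis.

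Ranked by level, tp63 ran from sphere-treated tailbud (5007) through sphere-treated 7-somite (3378), epiboly-treated tailbud (2986), epiboly-treated 7-somite (2211) and sphere-treated shield (706) to epiboly-treated shield (121). Of these neighbours, sphere-treated 7-somite and epiboly-treated tailbud were not distinguished (log2 ratio 0.18, 95% interval -0.12 to 0.48, limma adjusted p = 0.28). The other neighbours in this order were called different. For dlx3b the order ran from sphere-treated tailbud (5706) through epiboly-treated tailbud (3399), sphere-treated 7-somite (3017), epiboly-treated 7-somite (2345) and sphere-treated shield (1214) to epiboly-treated shield (93). Here the epiboly-treated tailbud and sphere-treated 7-somite means were not distinguished (log2 ratio of the second to the first -0.17, 95% interval -0.38 to 0.03, limma adjusted p = 0.14). Nor were epiboly-treated 7-somite and sphere-treated shield (log2 ratio 0.95, 95% interval 0.03 to 1.87, limma adjusted p = 0.057). The orders were read from the same values that the tests use.

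At shield, the comparison asked how far the earlier block moved these ectoderm genes when the organizer forms. tp63 was higher in sphere-treated embryos by a log2 ratio of 2.50 ± 0.31 (SE, 95% interval 1.74 to 3.25, limma adjusted p = 0.013), or 5.83-fold on the plain means. dlx3b was higher by 3.64 ± 0.48 (95% interval 2.47 to 4.81, limma adjusted p = 0.013), or 13.1-fold. Counted down from the highest log2 ratio, dlx3b was number 2 and tp63 number 22 of the 13274 genes. Calls were common at this stage, since 20.5% of all genes were called higher and 19.9% lower. The authors' deposited table gives epiboly-to-sphere ratios of 0.173 for tp63 and 0.077 for dlx3b, and calls both at its 50% change.

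The shield values were also the least precise ones of both genes. The standard error of dlx3b was 25.9% of its mean in epiboly-treated and 33.3% in sphere-treated shield embryos, and that of tp63 was 16.3% and 21.4%. In the sphere-treated shield group, 99.5% of genes at 100 or more had a smaller relative error than dlx3b, and 97.1% had a smaller one than tp63. At tailbud and 7-somite the relative errors of the 2 genes lay between 0.996% and 8.06%. Relative to their means, both genes thus varied more between the 3 values of a group at shield than at either later stage.

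**Figure D2:**
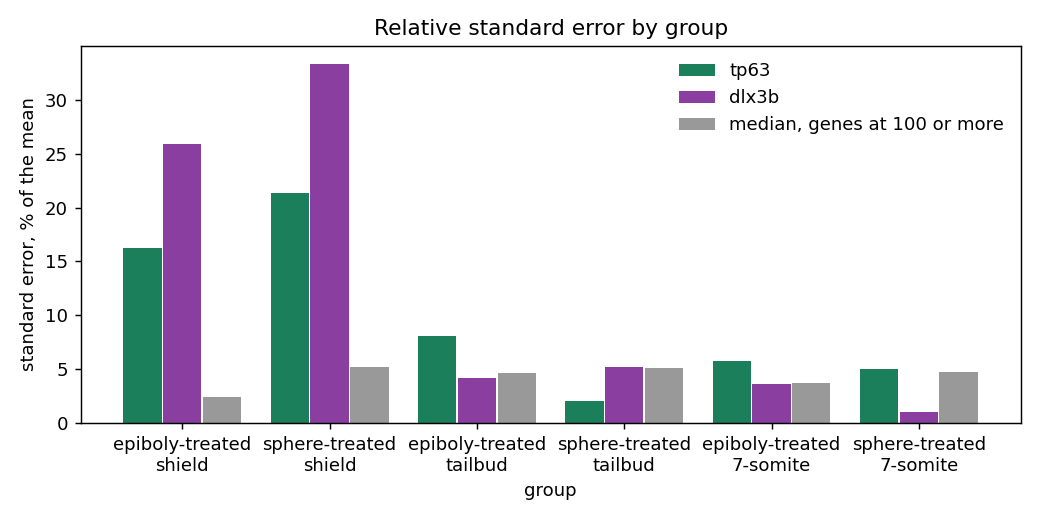
Standard error as a percentage of the group mean for tp63 (green), dlx3b (purple) and the median of all genes with a mean of at least 100 (grey), in each of the 6 groups. The shield bars of both genes stand at 16.3% to 33.3%, and all their later bars lie at or below 8.06%.

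From shield to tailbud both genes rose in both onsets. In epiboly-treated embryos tp63 rose 24.7-fold (log2 change 4.57, 95% interval 4.08 to 5.06, limma adjusted p = 2.0e-06) and dlx3b 36.5-fold (log2 change 5.12, 95% interval 4.44 to 5.80, limma adjusted p = 4.9e-06). Of all genes, 80.6% were called over this step in one direction or the other. In sphere-treated embryos, which began from a higher level, the rise was 7.09-fold for tp63 (log2 change 2.82, limma adjusted p = 0.00029) and 4.70-fold for dlx3b (log2 change 2.23, limma adjusted p = 0.0030), where 63.3% of all genes were called. The sphere-treated shield means lay between the epiboly-treated shield and tailbud means of the same gene. A response to the earlier block and a later position in development at harvest therefore cannot be told apart at shield, and the shield onset ratio and the epiboly-treated step share 1 group.

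At tailbud the ratios were smaller and close to each other. tp63 was higher in sphere-treated embryos by 0.74 ± 0.12 on the log2 scale (SE, 95% interval 0.46 to 1.03, limma adjusted p = 0.033), or 1.68-fold. dlx3b was higher by 0.75 ± 0.11 (95% interval 0.50 to 0.998, limma adjusted p = 0.021), also 1.68-fold. Few genes were called at this stage, 0.249% higher and 1.74% lower. In plain UQN units this was nonetheless the stage of the widest gap, 2021 for tp63 against 585 at shield, and 2307 for dlx3b against 1121 at shield. The authors' deposited table gives the ratio 0.596 for either gene and calls both. With the spread pooled over all 6 groups, which brings in the wide shield errors, the adjusted p was 0.060 for tp63 and 0.20 for dlx3b, and without moderation 0.17 and 0.12.

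At 7-somite both genes were still higher after the earlier onset, with the lower ratio for dlx3b, a gap between the genes that was not tested. The log2 ratio was 0.61 ± 0.11 for tp63 (SE, 95% interval 0.36 to 0.86, limma adjusted p = 0.019), or 1.53-fold. For dlx3b it was 0.36 ± 0.08 (95% interval 0.18 to 0.55, limma adjusted p = 0.030), or 1.29-fold. Of all genes, 5.91% were called higher and 8.81% lower. The authors' deposited table calls tp63 (ratio 0.655) and does not call dlx3b (ratio 0.777). With the spread pooled over 6 groups the adjusted p was 0.063 for tp63 and 0.45 for dlx3b.

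**Figure D3:**
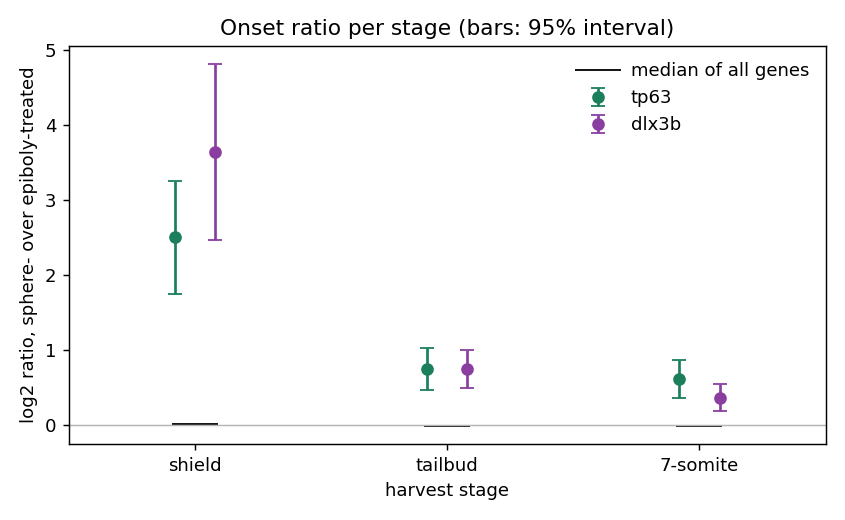
Log2 ratio of sphere- over epiboly-treated means at each harvest stage for tp63 (green) and dlx3b (purple), with 95% intervals; short black bars mark the median of all genes. Every interval lies above 0, and the shield ratios of 2.50 and 3.64 stand above those of 0.36 to 0.75 at the later stages.

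The fall of the ratio after shield was tested directly. The onset ratio of tp63 was lower at tailbud than at shield by a log2 difference of -1.75 ± 0.35 (SE, limma adjusted p = 0.012), and that of dlx3b by -2.89 ± 0.53 (SE, limma adjusted p = 0.0087). For this difference 12.0% of all genes were called lower. Between 7-somite and shield the differences were -1.89 for tp63 (limma adjusted p = 0.0042) and -3.27 for dlx3b (limma adjusted p = 0.0026), with 20.9% of all genes called lower. Between 7-somite and tailbud neither gene was called, and 0.716% of all genes were called lower. The difference was -0.13 for tp63 (95% interval -0.49 to 0.22, limma adjusted p = 0.68) and -0.38 for dlx3b (95% interval -0.66 to -0.11, limma adjusted p = 0.14). Averaged over the 3 stages, the log2 onset ratio was 1.28 for tp63 (limma adjusted p = 1.0e-05) and 1.58 for dlx3b (limma adjusted p = 4.4e-05), with 14.3% of all genes called higher. Without the shield stage these averages were 0.68 and 0.55. A limma fit on the 6 means with stage as a block called neither gene (adjusted p = 0.65 and 0.68) and called 0 of all genes, with 974 at an unadjusted p under 0.05.

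After tailbud both genes fell. In epiboly-treated embryos tp63 fell by 0.43 on the log2 scale (limma adjusted p = 0.031) and dlx3b fell by 0.53 (limma adjusted p = 0.0037), where 44.0% of all genes were called in either direction. In sphere-treated embryos tp63 fell by 0.57 (limma adjusted p = 0.0045) and dlx3b fell by 0.92 (limma adjusted p = 0.0010), where 50.5% were called. The call for tp63 in epiboly-treated embryos did not hold with groups rescaled to equal totals, where the change was -0.36 (limma adjusted p = 0.058).

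The proportion of dlx3b to tp63 was lowest in epiboly-treated and highest in sphere-treated shield embryos, with the 4 later groups between them. The quotient of the dlx3b mean to the tp63 mean was 0.769 in epiboly-treated and 1.72 in sphere-treated shield embryos. These 2 quotients rest on the least precise means, with standard errors of 16.3% to 33.3%, and no error of a quotient was computed. The quotient was 1.14 in both tailbud groups, 1.06 in epiboly-treated and 0.893 in sphere-treated 7-somite embryos. The means are not corrected for transcript length, so only the change of this quotient between groups can be read, and it was not tested because the 2 genes were measured in the same embryos.

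The measured relatives of dlx3b took other courses. Of the other dlx genes, dlx2a, dlx4a, dlx4b and dlx5a were measured. dlx4b lies next to dlx3b on the chromosome in the RefSeq annotation of GRCz12tu and overlaps it in function. At shield it stood at 2 ± 0 and 11 ± 2.33 and was called higher in sphere-treated embryos (log2 ratio 1.19). At tailbud dlx4b stood at 58 ± 2.91 and 80 ± 14.7 and at 7-somite at 224 ± 6.64 and 218 ± 8.09, neither of them called. Unlike dlx3b, it was highest at 7-somite in both onsets.

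The other dlx genes also reached their highest means at 7-somite. dlx2a, a gene of forebrain and neural crest, went from 1 ± 0.577 and 8 ± 2.4 at shield to 69 ± 14.4 and 170 ± 25.6 at tailbud and 89 ± 1.86 and 187 ± 13.3 at 7-somite. It was called higher in sphere-treated embryos at shield (log2 ratio 1.12) and 7-somite (1.03) but not at tailbud (1.24). dlx5a, a gene of placodes and pharyngeal arches, was called at 7-somite alone of the 3 stages, where it was higher in sphere-treated embryos (134 ± 2.96 and 214 ± 21.9, log2 ratio 0.66). dlx4a was called higher at shield at means of only 2 ± 0.577 and 5 ± 0.333 (log2 ratio 0.51), and at neither later stage.

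BMP signalling acts upstream of both genes. The 33 measured genes of that pathway were listed with earlier results of these data known. Of these, 16 were called higher and 6 lower at shield, with a median log2 ratio of 0.22 against 0.01 for all genes. At shield 20.5% of all genes were called higher and 19.9% lower, so the 6 lower calls were near the background. The feedback inhibitor szl, which blocks the enzymes that cleave the BMP antagonist Chordin, was higher in sphere-treated embryos at each stage, with log2 ratios of 1.64, 1.17 and 1.51. gata2a, a ventral target of BMP, was higher at shield (2695 ± 164 and 6183 ± 567) and at tailbud (3792 ± 217 and 6696 ± 586). In contrast, the ventral genes vent (2570 ± 114 and 1207 ± 196, log2 ratio -1.09) and vox (log2 ratio -0.60) and the BMP target id1 (log2 ratio -0.32) were lower at shield. These were named after their values were seen. At 7-somite vent was called higher in sphere-treated embryos (804 ± 14.5 and 1156 ± 112, log2 ratio 0.52). The organizer antagonist nog1 was lower at shield (240 ± 19.1 and 46 ± 21.4), at tailbud (240 ± 21.5 and 37 ± 6.66) and at 7-somite (298 ± 20.7 and 189 ± 15.2). fsta, for the activin and BMP antagonist follistatin, was lower at tailbud (1871 ± 163 and 47 ± 11.4, log2 ratio -5.17) and at 7-somite (1575 ± 60.5 and 569 ± 168, log2 ratio -1.46). Over all genes 0.249% were called higher and 1.74% lower at tailbud, and 5.91% and 8.81% at 7-somite. At tailbud 5 of the 33 genes were called higher and 3 lower, with a median of 0.31. At 7-somite 9 were called higher and 4 lower, among the former smad9, which encodes a transducer of BMP signals (229 ± 26.6 and 461 ± 9.21).

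Other transcription factors of the non-neural ectoderm were called in both directions at shield. At this stage 20.5% of all genes were called higher and 19.9% lower, and the lower count of the regulators was near that share. Of the 23 measured regulators other than tp63 and dlx3b, 11 were called higher and 4 lower in sphere-treated embryos, with a median of 0.80. Among the former were the homeobox gene msx1a (76 ± 5.78 and 343 ± 71.5, log2 ratio 2.10), the AP-2 gene tfap2a (2735 ± 160 and 6550 ± 935, log2 ratio 1.26) and foxi1, needed for the otic placode (983 ± 92.3 and 2552 ± 298, log2 ratio 1.37). Among the 4 lower ones, and named here after their values were seen, were grhl2a, grhl3 and klf17, with log2 ratios of -0.84, -0.93 and -0.32. grhl3 is a regulator of the enveloping layer, the outer sheet of the gastrula, and klf17 of hatching gland and surface cells.

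At tailbud 3 of these 23 regulators were called higher and 0 lower, with a median of 0.38. At 7-somite 4 were called higher and 0 lower, with a median of 0.27. Over all genes 0.249% were called higher and 1.74% lower at tailbud, and 5.91% and 8.81% at 7-somite. At an unadjusted p under 0.05 the limma-moderated test gave 9 regulators higher and 0 lower at tailbud, and 14 higher and 0 lower at 7-somite. The share of all genes at the unadjusted threshold is not given, here or below. Such counts therefore cannot be set against the shares of all genes called. klf2a, a Krüppel-like factor gene, was higher at both stages, at 1979 ± 62.3 and 3916 ± 257 at tailbud and at 449 ± 24.6 and 723 ± 23 at 7-somite. tfap2c, the AP-2 gene that acts with tfap2a, was also higher at both stages. It stood at 8864 ± 398 and 13232 ± 375 at tailbud and at 6367 ± 279 and 9255 ± 372 at 7-somite. msx2b was higher at 7-somite at 215 ± 6.25 and 355 ± 8.62. Summed over the 23 genes, the level was 35125 and 51372 at shield, 37547 and 56190 at tailbud, and 25222 and 31922 at 7-somite. The count called higher at tailbud was largest with 2 values behind each mean, at 10 of 25, the 2 genes included. Under that setting the higher calls among all genes rose from 33 to 220. Without moderation the count fell to 0, and that of all genes to 3.

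**Figure D4:**
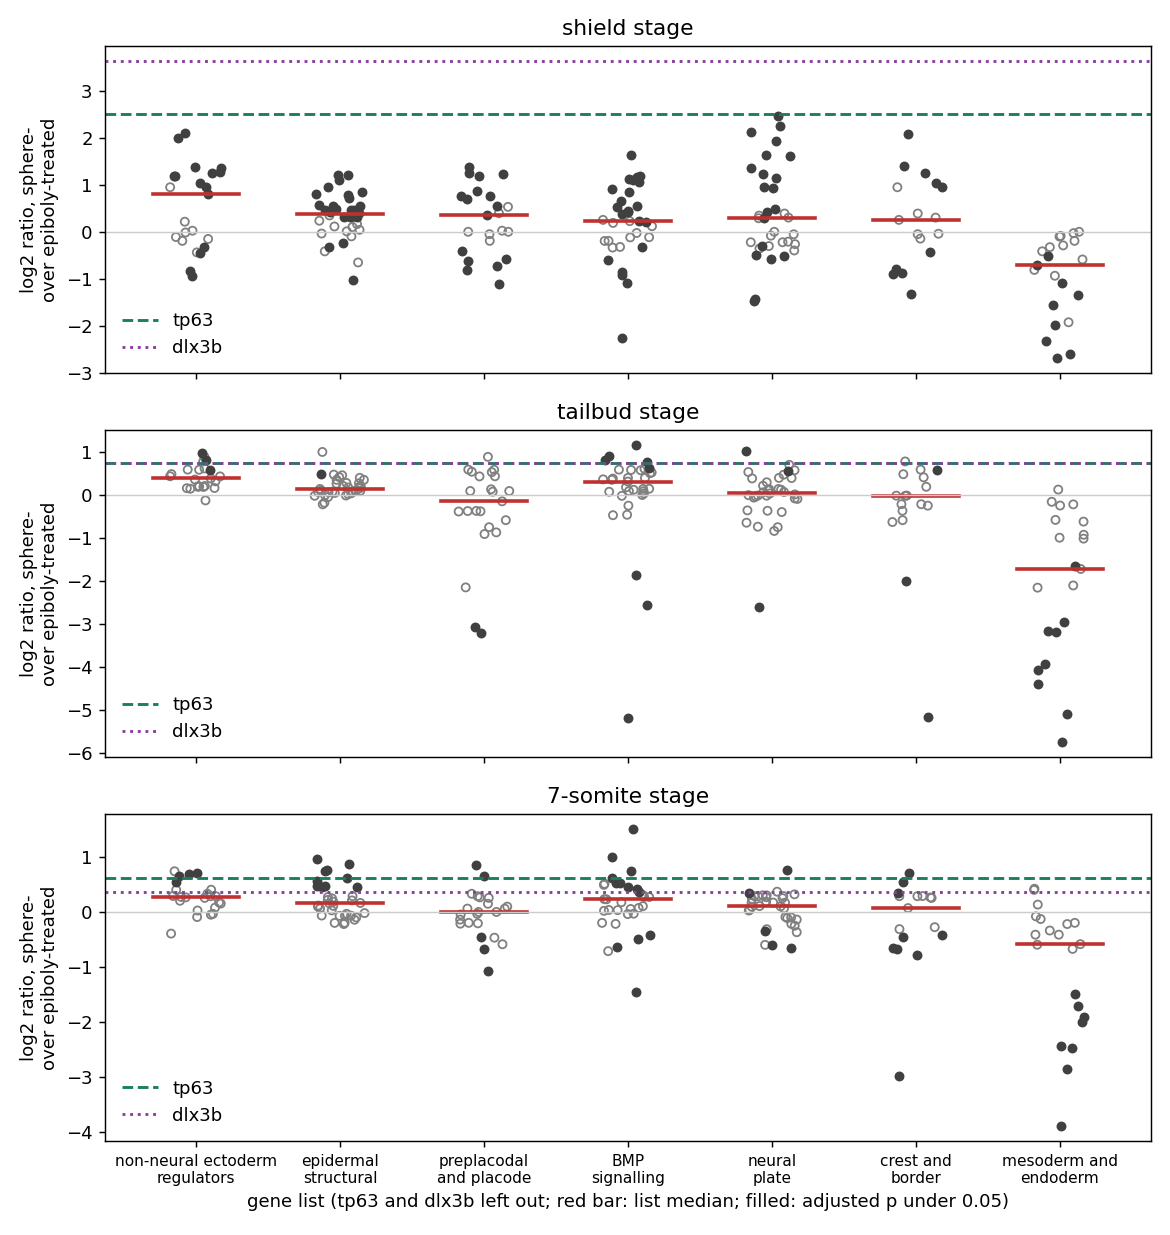
Log2 onset ratio (sphere- over epiboly-treated) of each measured gene in 7 lists at shield (top), tailbud (middle) and 7-somite (bottom); filled points have an adjusted p under 0.05, red bars are list medians, and the dashed and dotted lines are the ratios of tp63 and dlx3b, which are left out of the points. At shield both lines lie above every plotted gene, while at tailbud klf2a, at 0.98, and at 7-somite anxa1a, at 0.95, are among the genes above them.

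Structural genes of the enveloping layer and of the epidermis, not of its basal layer alone, were mostly called higher at shield. Over all genes 20.5% were called higher and 19.9% lower at shield, 0.249% and 1.74% at tailbud, and 5.91% and 8.81% at 7-somite. Of 34 measured genes for keratins, cell junctions and basement membrane, 20 were called higher and 3 lower at shield, with a median of 0.37. The widest ratios were those of evplb, for a protein of the cell envelope (1978 ± 188 and 4600 ± 520), krt17, a keratin gene (2793 ± 144 and 6481 ± 835), and lama5, for a laminin chain of the basement membrane (612 ± 55.2 and 1328 ± 226). At tailbud 1 of the 34 was called, cdh1, for E-cadherin, which was higher in sphere-treated embryos at 3549 ± 116 and 5013 ± 131 (log2 ratio 0.50). At shield cdh1 was instead among the 3 lower genes, at 7232 ± 76.1 and 5797 ± 175 (log2 ratio -0.32). With equal totals or a pseudocount of 1 the count called higher at tailbud was 0, and with a prior that follows the level it was 5. With that prior the higher calls among all genes rose from 33 to 99. At 7-somite 10 were called higher and 0 lower (12 and 0 at an unadjusted p under 0.05 in the limma-moderated test), among them anxa1a, an annexin gene (3785 ± 403 and 7339 ± 616), and itga6b, for an integrin chain that anchors basal cells (960 ± 50.6 and 1759 ± 101). The summed level of the 34 genes was 308473 and 405199 at shield, 401317 and 432713 at tailbud, and 433665 and 471627 at 7-somite.

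Preplacodal genes were called in both directions. Of 23 measured genes of that list other than dlx3b, 10 were called higher and 6 lower at shield, with a median of 0.35, where 20.5% of all genes were called higher and 19.9% lower. Among the 10 higher genes, tfap2a, foxi1 and dlx4b were also counted among the non-neural ectoderm regulators. The 6 lower calls were near the background, and they fell to 0 without moderation and to 2 with a mean of at least 200. At tailbud 0 were called higher and 2 lower, at a median of -0.15, where 0.249% of all genes were called higher and 1.74% lower. The 2 lower genes were six4a (198 ± 2.03 and 17 ± 10.6, log2 ratio -3.21) and pax8, an early otic gene that is also expressed in the pronephros (363 ± 15 and 39 ± 9.94, log2 ratio -3.06). At an unadjusted p under 0.05 the limma-moderated test gave 5 higher and 5 lower at tailbud. Under the other settings 0 to 5 of 24 genes, dlx3b included, were called higher there. The count of all genes called higher at tailbud ran from 3 to 267. At 7-somite 2 were called higher and 3 lower, where 5.91% of all genes were called higher and 8.81% lower, so both counts were near the background. eya4 was higher at 7-somite (55 ± 3.53 and 103 ± 6.66). At shield it was instead among the 6 lower genes, at means of only 4 ± 0.333 and 1 ± 0.577 (log2 ratio -0.58). sox10, of the otic placode and neural crest, was lower at 7-somite (720 ± 77.4 and 448 ± 28.2).

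Neural plate and border genes mark the other ectodermal fates. Of 34 neural plate genes 14 were called higher and 6 lower at shield, 2 and 1 at tailbud, and 2 and 3 at 7-somite, with medians of 0.29, 0.05 and 0.10. Over all genes 20.5% were called higher and 19.9% lower at shield, 0.249% and 1.74% at tailbud, and 5.91% and 8.81% at 7-somite, so the lower calls at shield and both counts at 7-somite were near the background. otx1, a head gene, came near tp63 at shield (375 ± 41.5 and 2084 ± 604, log2 ratio 2.46). hesx1, of the anterior forebrain, was higher in sphere-treated embryos at tailbud and 7-somite (log2 ratios 1.01 and 0.76). In contrast, irx3a of the same list was called lower at shield, tailbud and 7-somite, with log2 ratios of -1.47, -2.60 and -0.60. Of 17 border and neural crest genes, 5 were called higher and 5 lower at shield, 1 and 2 at tailbud, and 3 and 6 at 7-somite. Both of their counts at shield were near the background. The lists overlap, so a gene can be counted in several of them. Among the 5 higher genes at shield, tfap2a, tfap2c and msx1b were also counted among the non-neural ectoderm regulators. At shield prdm1a, which acts at the plate border, was higher at 182 ± 26.8 and 790 ± 150. twist1a, of mesoderm and neural crest, was lower at each stage, with log2 ratios of -1.32, -5.17 and -2.98.

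Markers of the other germ layers mostly moved the opposite way. Over all genes 20.5% were called higher and 19.9% lower at shield, 0.249% and 1.74% at tailbud, and 5.91% and 8.81% at 7-somite. Of 21 measured mesoderm and endoderm genes, 9 were called lower at shield, 9 at tailbud and 8 at 7-somite, and 0 were called higher. At an unadjusted p under 0.05 the limma-moderated test gave 0, 0 and 1 higher. Under the settings tried, the lower count ran from 1 to 13 at shield, from 3 to 16 at tailbud and from 0 to 11 at 7-somite, and 1 gene was called higher at 7-somite under 4 of them. The lower count of all genes ran from 574 to 2983, from 39 to 585 and from 452 to 1816 at these stages. Their summed level at shield was 26627 with the later and 17206 with the earlier onset, and then 15795 and 7233 at tailbud, and 16748 and 14231 at 7-somite, and none of the 21 was listed at 0 in any group. The largest levels in the shield sums were those of tbxta (8627 and 5735) and tbx16 (8572 and 4884), neither of them called. At 7-somite tbx16, msgn1 and gata6 had ratios above 0 (0.40, 0.13 and 0.42), none called. The marker levels moved with the onset beside those of tp63 and dlx3b, and their part in the ratios of the 2 genes was not tested. The median ratio of all genes was 0.01, -0.01 and -0.02 at the 3 stages.

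The genes whose profile over the 6 groups was most like that of tp63 were a2m2d, a2m2h, a2m2f and a2m2b, then dlx3b. Likeness was the root mean square difference of log2 levels after centring each gene, over 6 groups and 10835 named genes, and it was 0.25, 0.26, 0.29, 0.30 and 0.35 in that order, with Pearson's r of 0.98 to 0.99. For dlx3b the closest were a2m2d (0.31), tp63 (0.35), a2m2f (0.36), a2m2b (0.37) and a2m2h (0.40). The 6 points are the same embryos for every gene, and all of these genes were low at shield and high at tailbud. The a2m2 genes encode proteins of the alpha-2-macroglobulin type, and as close copies they may share reads, so their separate values are uncertain.

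At tailbud the a2m2 genes stood at nearly the same level in both onsets, unlike tp63 and dlx3b, although the gap between the genes was not tested. a2m2d stood at 121 ± 13.4 and 940 ± 309 at shield (log2 ratio 2.91, limma adjusted p = 0.013). At tailbud it stood at 4562 ± 117 and 4599 ± 286 (log2 ratio 0.01, 95% interval -0.24 to 0.26, limma adjusted p = 0.98). At 7-somite the means were 2302 ± 162 and 3557 ± 781 (log2 ratio 0.63, limma adjusted p = 0.14). The tailbud log2 ratios of a2m2h, a2m2f and a2m2b were 0.03, 0.01 and -0.07, with none called.

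**Figure D5:**
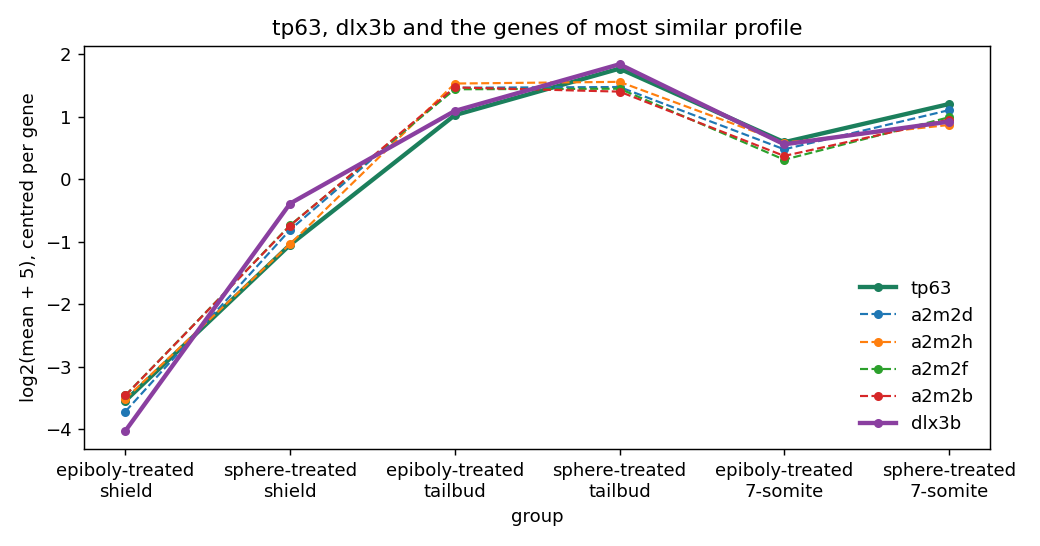
Centred log2(mean + 5) of tp63 (thick green), dlx3b (thick purple) and the 4 a2m2 genes (dashed) in the 6 groups. All curves rise steeply from shield and lie close at 7-somite, while at tailbud tp63 and dlx3b are higher in sphere-treated embryos and the a2m2 curves are flat between the onsets.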

How the data were processed

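The authors deposited upper-quartile normalized means per group, rounded to whole numbers, and their standard errors, both scores on a normalized scale, per the file headers. The table also holds the authors' ratio per stage, per the file headers, and a yes or no call at a 50% change, a value of another kind, per the file headers. The submitters' processing notes list DESeq 1.6.1 without saying what it did; which aligner, counter and build were used is not given in the sources used here. All records have a highest group mean of at least 101.

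GeneIDs were mapped to symbols with RefSeq's table for GRCz12tu (12182 of 13321 records by GeneID, 42 by accession, 1097 unmatched); the record of highest mean was kept per symbol. Of 11992 standard errors above 0 and under 5, 11992 lay within 0.0006 of the grid that 3 whole numbers give, against 10.8% of evenly spread values. Log2(mean + 5) was compared with variances from the standard errors (delta method), moderated by limma 3.58.1 (R 4.3.3) squeezeVar with 4 degrees of freedom per gene and pair, two-sided, with Benjamini-Hochberg adjustment over 13274 genes; differences between stages used 4 groups. The test was tested on simulated data in which all genes of a group had the same spread setting. The wide errors of tp63 and dlx3b at shield were thus not covered. Members and lists were chosen with earlier results of these data known. Named were tp63, dlx3b, the dlx family, up to 3 called genes of widest ratio per list and stage, and the 5 genes of closest profile; genes with clone names were passed over, and some genes the rule names are not reported here. Alternatives were pseudocounts of 1 and 20, trimmed-mean factors, equal totals, no moderation, pooled spread, 2 values per mean, a mean of at least 200, a prior that follows the level, and limma on the 6 means with stage as a block.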

Additional observations from a re-analysis of the deposited data

Results flagged for a closer look

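Under the same contrast of onsets, the effect on the log2 scale differed between harvest stages for both genes by a test of the difference itself. For tp63 the log2 onset ratio at tailbud fell short of that at shield (difference -1.75, limma adjusted p = 0.012) and that at 7-somite likewise (-1.89, limma adjusted p = 0.0042). For dlx3b the same differences were -2.89 (limma adjusted p = 0.0087) and -3.27 (limma adjusted p = 0.0026). In each case the ratio was above 0 at both stages compared, and the shield groups carried the widest relative errors of both genes. In plain UQN units the gap between the onsets did not shrink from shield to tailbud. For tp63 it was 585 at shield, 2021 at tailbud and 1167 at 7-somite, and for dlx3b it was 1121, 2307 and 672.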

How the results depend on the processing

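No direction changed for tp63 or dlx3b in 206 recomputed values, of which 192 kept their side of the threshold and 14 lost the call. At tailbud, calls were lost without moderation (tp63 0.74, dlx3b 0.75) and with spread pooled over 6 groups (0.74 and 0.75). At 7-somite, tp63 (0.61) lost its call under the same 2 settings, and dlx3b (0.36) with pooled spread and with 2 values behind each mean (adjusted p = 0.12). From tailbud to 7-somite in epiboly-treated embryos, tp63 lost its call with equal totals (-0.36), without moderation (-0.43) and with pooled spread (-0.43), and dlx3b with pooled spread (-0.53). Averaged over the 3 stages, the onset ratio was 1.28 for tp63 and 1.58 for dlx3b. Limma on the 6 means with stage as a block gave 1.28 (adjusted p = 0.65) and 1.58 (adjusted p = 0.68), neither called. The standard errors of that fit were 0.39 and 0.65. They come from how far the onset ratio differed between stages, moderated by limma over all genes, and not from the deposited standard errors. The cause of the lost calls was not tested. Without the shield stage the averages were 0.68 and 0.55. A prior that follows the level and the averages without a stage were chosen after seeing the data; with that prior the tailbud adjusted p was 0.0037 for tp63 and 0.0016 for dlx3b. The shield calls of both genes held under each setting. Scaling to equal totals moved the median step of all genes from shield to tailbud by 0.28 and 0.31 (epiboly- and sphere-treated) and trimmed-mean factors by 0.21 and 0.24. The count of all genes called higher ran from 861 to 2959 at shield (2716 as reported), 3 to 267 at tailbud (33) and 245 to 1229 at 7-somite (785), and of those called lower from 574 to 2983 (2635), 39 to 585 (231) and 452 to 1816 (1169). Without moderation the list counts at shield fell from 20 to 8 (epidermal structural, higher), 14 to 1 (neural plate, higher), 11 to 5 (preplacodal with dlx3b, higher), 16 to 9 (BMP, higher), 4 to 0 (regulators, lower) and 9 to 1 (mesoderm and endoderm, lower), and no list kept more than 3 calls in a direction at tailbud or 4 at 7-somite. The mean of at least 200 took the lower preplacodal calls at shield from 6 to 2 and those of mesoderm and endoderm at 7-somite from 8 to 0, all 8 genes having lower means. Each gene had 1 record, so no other record could be tried. Leaving out single values was not possible, as the values behind the means were not analysed here. With replicate numbers, no paired analysis was possible because each group has 1 sample; the block above pairs the onsets by harvest stage.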
